A study of Sus scrofa with 32 samples.

Results

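The 7 genes described here are CYP2C34, CYP2C36, CYP2C49, BHMT, MPV17L, DISP3 and ANXA13, out of 30185 pig genes with counts. They were matched by symbol and chosen by their read counts in glandular epithelium, which were lower in pregnant than in cyclic gilts. The pregnancy contrast in glandular epithelium is therefore given as a description, with no p-value or call. Intervals given for it cover counting error alone. Its standard errors (SE) are derived from the fitted change and test statistic of this same contrast, so they are no test of it apart from the choice. The other compartments were not used for the choice. All 7 were in the authors' table of detectable genes for glandular epithelium, 1 (CYP2C34) in that for luminal epithelium, and 0 in those for blood vessel and stroma.

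The study asked how the endometrium differs between pregnant and cyclic gilts on Day 14, when the pig conceptus attaches, in each of 4 compartments cut from frozen sections by laser capture microdissection. These were stroma (S), blood vessel (BV), and the epithelium of the lumen (LE) and of the glands (GE). Prepuberal gilts of both groups had been brought into synchrony with eCG and then hCG. The 4 pregnant gilts were inseminated with semen of a German Landrace boar. The 4 cyclic, nonpregnant gilts received only the supernatant of semen from the same boar. Gilts are named by the letter and number in the sample labels, C128, C40, C42 and C78 for cyclic and P139, P39, P41 and P43 for pregnant animals, and values are listed in this order. Pregnant endometrium came from the hyperemic zones where embryos attach, after the conceptus was taken off, so that site and pregnancy cannot be told apart. Each gilt gave 1 library per compartment, but GE of pregnant gilt P41 is labelled as deleted during processing and was not analysed here, which leaves 31 libraries and n = 3 in pregnant GE.

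CYP2C enzymes are monooxygenases of the endoplasmic reticulum that oxidise drugs, steroids and fatty acids such as arachidonic acid, and they are best known from the liver. BHMT transfers a methyl group from betaine to homocysteine and so returns it to methionine. MPV17L is a membrane protein of peroxisomes and mitochondria that has been linked to reactive oxygen species. DISP3 is a Dispatched-family membrane protein with a sterol-sensing domain, and ANXA13 is an annexin, a calcium-dependent membrane-binding protein, known from intestinal and renal epithelium. Uterine glands secrete the nutrients on which the conceptus lives before implantation.

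The 31 libraries held 2415216 to 7081556 counts each (median 3624021), of which 5.20% to 16.9% fell on 2 rRNA genes. Levels are given as CPM, read counts scaled to a common library size with TMM factors over all libraries. Over a whole group, 3 counts correspond to 0.178 CPM in cyclic GE and 0.254 CPM in pregnant GE, and such floors, like the intervals given below, describe counting error alone. FOXA2, a transcription factor of uterine glands, was at 65.1 to 94.2 CPM in the 7 GE libraries and at most at 22.7 CPM elsewhere. Of the other gland markers, ACP5 had 27725 counts in cyclic GE against 3330 in cyclic LE, but RBP4 had 7104 against 13345. Fibroblast markers summed to 4077 to 14296 CPM in cyclic LE, against 24959 to 90660 CPM in cyclic BV and 36438 to 105780 CPM in cyclic S. The 9 epithelial markers summed to 3.39 to 53.1 CPM in cyclic BV and to 173 to 343 CPM in pregnant BV. In S they summed to 11.2 to 187 CPM in cyclic and 39.3 to 481 CPM in pregnant gilts. The 7 hepatocyte markers summed to 5.37 to 52.3 CPM in cyclic and 12.8 to 32.5 CPM in pregnant GE, and to 353 CPM at most, in pregnant S. APOA1 was at 3.22 to 50.5 CPM in cyclic and 1.30 to 31.9 CPM in pregnant GE, ALB had at most 6 counts in any library, and FGA and APOC3 had 0 in GE. TTR had 50 counts in pregnant and 0 in cyclic GE.

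Cyclic gilt C128 stood apart from the other cyclic gilts. ACP5, which encodes the gland product uteroferrin, was at 14.2 CPM in its GE library against 1531 to 2374 CPM in those of cyclic gilts C40, C42 and C78, and at 4448 to 6677 CPM in GE of pregnant gilts. RBP4, the retinol carrier secreted by the uterus, was at 11 CPM against 396 to 672 CPM in the other cyclic and 1879 to 3811 CPM in pregnant GE libraries. FOXA2 in the GE library of gilt C128, at 92.6 CPM, was within the range of the others. Pregnant gilt P41 stood apart as well, by its CYP2C reads outside GE, and the values of the 7 genes that rest on either gilt are given without it as well. The labels call C128 a nonpregnant gilt, and its stage of the cycle was not checked further. Why the GE library of P41 was deleted is not given in the sources used here.

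**Figure D1:**
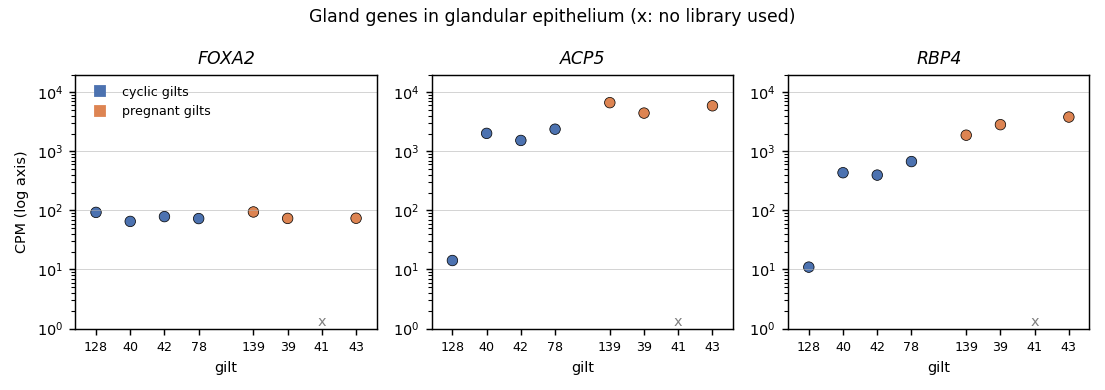
Levels of 3 gland genes in each GE library, in CPM on a log axis, by gilt (blue, cyclic; orange, pregnant; x, no library used). FOXA2 lies between 65.1 and 94.2 CPM in all 7 libraries, whereas ACP5 and RBP4 of cyclic gilt C128 lie at 14.2 and 11 CPM, below all the others.

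The 3 CYP2C genes lie in 1 cluster on chromosome 14 of Sscrofa11.1, all on the plus strand. CYP2C36 (gene ID 403110) spans chr14:106184665-106219631, CYP2C34 (403108) spans chr14:106285170-106327579 and CYP2C49 (403215) spans chr14:106571803-106612082. From the CYP2C-like gene LOC100624435 to CYP2C49 the cluster covers 604 kb with 14 annotated genes and pseudogenes. Each of the 3 has 9 coding exons with 1473 coding bases, and each has 1 annotated pseudogene within its span on the minus strand. Their first 120 coding bases follow, read from the genome, to show how alike these copies are. The 14 positions at which the 3 genes are not all the same are in capitals.
CYP2C34, chr14:106285362-106285481, plus strand: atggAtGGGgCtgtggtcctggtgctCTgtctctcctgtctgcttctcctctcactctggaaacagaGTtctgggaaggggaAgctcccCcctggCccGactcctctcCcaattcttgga
CYP2C36, chr14:106184769-106184888, plus strand: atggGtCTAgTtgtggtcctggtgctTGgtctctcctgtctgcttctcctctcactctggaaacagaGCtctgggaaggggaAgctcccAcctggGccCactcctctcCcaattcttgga
CYP2C49, chr14:106571922-106572041, plus strand: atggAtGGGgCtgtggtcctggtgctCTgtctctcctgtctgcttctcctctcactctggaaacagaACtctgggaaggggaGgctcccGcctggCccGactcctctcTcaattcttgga

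Over the whole coding sequence CYP2C34 and CYP2C49 shared 96.3% of aligned bases, CYP2C34 and CYP2C36 94.5%, and CYP2C36 and CYP2C49 94.3%. Their neighbour CYP2C32 was still closer to CYP2C49, at 97.7%. The longest identical runs were 196 bases for CYP2C34 with CYP2C49, 112 bases for CYP2C34 with CYP2C36, and 215 bases for CYP2C36 with CYP2C49. Of all 50-base windows of the coding sequence, 34.6% in CYP2C34, 30.2% in CYP2C36 and 61.1% in CYP2C49 also occurred in another gene among these 3, CYP2C32 and LOC100624435. How reads that fit several copies were counted is not given in the sources used here. The split of reads among these copies is therefore uncertain.

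The other 4 genes lie on separate chromosomes, and no other annotated gene overlaps them. BHMT (397371) spans chr2:87911093-87935252 on the plus strand, with 8 coding exons. MPV17L (100622474) spans chr3:7423083-7441583 on the minus strand, with 4. DISP3 (100523793) spans chr6:71583818-71640945 on the plus strand, with 20. ANXA13 (100155380) spans chr4:15707576-15765934 on the plus strand, with 12.

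Levels of the 3 CYP2C genes were correlated over the 31 libraries (Pearson's r of log2(CPM + 1) 0.878 to 0.918), though not alike in every library. Reads shared between the copies can add to this, and common control was not tested. The 250 bases before the annotated starts of the 3 genes are shown, with matches to a forkhead (FOXA) motif in capitals.
CYP2C34, chr14:106284920-106285169, plus strand: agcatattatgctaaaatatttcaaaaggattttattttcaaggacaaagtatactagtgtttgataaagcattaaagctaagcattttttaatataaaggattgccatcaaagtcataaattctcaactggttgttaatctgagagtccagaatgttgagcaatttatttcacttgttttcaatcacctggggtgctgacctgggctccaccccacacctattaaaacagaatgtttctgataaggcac
CYP2C36, chr14:106184415-106184664, plus strand: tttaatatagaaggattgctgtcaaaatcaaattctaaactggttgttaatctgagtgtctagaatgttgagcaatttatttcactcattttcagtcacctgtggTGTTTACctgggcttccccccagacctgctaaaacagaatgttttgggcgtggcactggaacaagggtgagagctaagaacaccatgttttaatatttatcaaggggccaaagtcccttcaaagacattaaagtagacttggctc
CYP2C49, chr14:106571553-106571802, plus strand: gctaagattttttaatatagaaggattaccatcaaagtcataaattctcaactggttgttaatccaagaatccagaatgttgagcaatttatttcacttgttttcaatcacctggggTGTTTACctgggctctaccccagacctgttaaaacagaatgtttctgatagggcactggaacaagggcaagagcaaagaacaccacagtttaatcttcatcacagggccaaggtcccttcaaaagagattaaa

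The forkhead motif was searched on both strands in 4 spellings. The first was TGTTTAC, the core that forkhead proteins are known to bind. The next was TGTTTGC, which differs from it by a single letter near the end. Another was TATTTAC, which differs from the first by its second letter. The last was TATTTGC, which combines both of these changes. A match was found once in the window of CYP2C36, starting 145 bases before the annotated gene start, and once in that of CYP2C49, starting 133 bases before it. CYP2C34 had no match in its window. The annotated gene start, before which each window lies, is 192 bases before the ATG in CYP2C34, 104 bases in CYP2C36 and 119 bases in CYP2C49. BHMT, DISP3 and ANXA13 also held 1 match each, so that 5 of the 7 windows had one, and MPV17L had none. The windows of the cluster genes CYP2C32 and LOC100624435 held no match either, although that of CYP2C32 shared 79.0% of aligned bases with that of CYP2C49. The windows of CYP2C36 and CYP2C49 shared 76.4% of aligned bases, so their matches are not separate cases. Of 20653 such windows before protein-coding genes, 9.68% held a match. The HNF4 sequence CAAAGTCCA (0.315% of windows) and the progesterone and glucocorticoid receptor palindrome (0.223%) had no match in any of the 7. A match is a likeness of letters, and binding was not measured.

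In GE all 7 genes had lower fitted levels in pregnant than in cyclic gilts, with log2 fold changes of -6.85 to -3.51, and this is the contrast for which they were chosen. The cyclic libraries that carried the reads were not the same for every gene. The CYP2C genes and BHMT were high in gilts C40, C42 and C78 and at or near 0 in gilt C128. MPV17L and DISP3 were high in gilts C128 and C42, and ANXA13 was present in all 4. In such captures fewer cells of a type and less RNA per cell cannot be told apart.

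**Figure D2:**
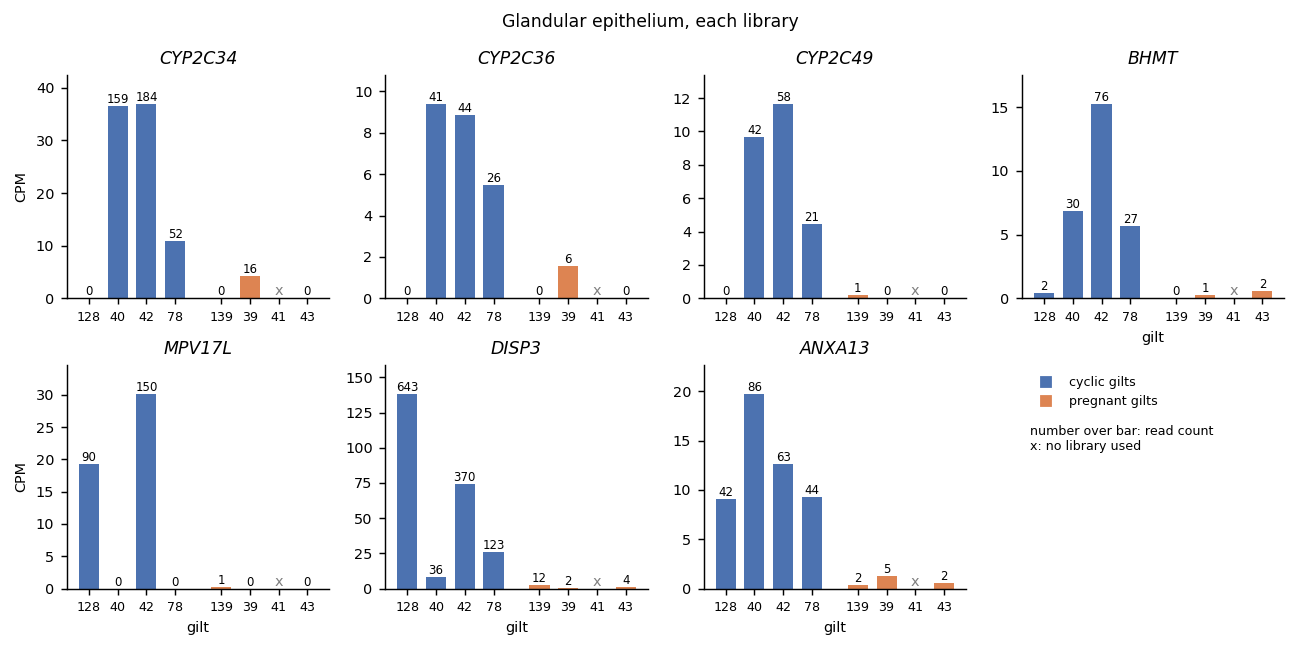
Level of each gene in the GE libraries, in CPM on a linear axis from 0, by gilt (blue, cyclic; orange, pregnant; x, no library used), with the read count over each bar. The 3 CYP2C genes are at 0 counts in cyclic gilt C128, whereas DISP3 is at its highest there with 643 counts.

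CYP2C34 was at 0, 36.5, 37.0 and 11 CPM in GE of cyclic gilts C128, C40, C42 and C78, and at 0, 4.17 and 0 CPM in pregnant gilts P139, P39 and P43. The groups overlapped, since the cyclic library of gilt C128 held 0 of its 395 cyclic counts and pregnant gilt P39 held all 16 pregnant counts. Its log2 fold change of pregnant against cyclic was -3.96 (SE 1.63). Leaving out pregnant gilt P39 moved it to -9.59, a value that depends on the prior count because the remaining pregnant libraries are at 0. Without cyclic gilt C128 it was -4.39.

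CYP2C36 followed the same libraries, with 0, 9.40, 8.84 and 5.48 CPM in the cyclic gilts and 0, 1.56 and 0 CPM in the pregnant ones, listed in the same order. Here too pregnant gilt P39 held all 6 pregnant counts and lay below the 3 cyclic libraries with reads. The log2 fold change was -3.51 (SE 1.47), -3.93 without cyclic gilt C128 and -7.77 without pregnant gilt P39, again with 0 pregnant counts left. CYP2C49 was at 0, 9.63, 11.7 and 4.43 CPM in cyclic and at 0.196, 0 and 0 CPM in pregnant GE. Its single pregnant count came from gilt P139, and pregnant gilt P39, which had reads of CYP2C34 and CYP2C36, had none of CYP2C49. The pooled ratio of cyclic to pregnant counts was 84.8 (exact 95% binomial interval 14.9 to 3378), for 121 against 1 count. Pooled ratios here and below are of summed counts over summed library totals, without TMM factors. Its fitted change was -5.92 on the log2 scale (SE 1.68), or -6.33 without gilt C128 and -7.81 without gilt P139, where 0 pregnant counts are left.

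BHMT was at 0.430, 6.88, 15.3 and 5.70 CPM in cyclic gilts C128, C40, C42 and C78 and at 0, 0.261 and 0.595 CPM in pregnant gilts P139, P39 and P43. Gilt C128, with 2 counts, lay inside the pregnant range, and the other 3 cyclic libraries lay above it. The pooled ratio was 31.5 (interval 10.6 to 155), for 135 against 3 counts, and the log2 fold change was -4.69 (SE 1.30), or -5.09 without gilt C128.

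MPV17L was at 19.3, 0, 30.1 and 0 CPM in the cyclic GE libraries in that order, and at 0.196, 0 and 0 CPM in the pregnant ones. Only gilts C128 and C42 carried it, with 90 and 150 counts, and the 2 other cyclic libraries could not be told from the pregnant ones. Its pooled ratio of 168 (interval 29.9 to 6673) therefore describes 2 of 4 gilts. The log2 fold change of -6.85 had the widest error of the 7 genes (SE 2.47) and was -5.87 without cyclic gilt C42 and -6.57 without gilt C128. edgeR's filterByExpr would have dropped the gene from the table.

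DISP3 had the most reads of the 7 genes, 1172 in cyclic against 18 in pregnant GE. It was at 138, 8.26, 74.4 and 25.9 CPM in cyclic gilts C128, C40, C42 and C78 and at 2.35, 0.521 and 1.19 CPM in pregnant gilts P139, P39 and P43, so the groups did not overlap. The log2 fold change was -5.41 (SE 1.1), and -4.67 without cyclic gilt C128, its highest library. ANXA13 was the most even, at 9.03, 19.7, 12.7 and 9.28 CPM in the cyclic and 0.392, 1.30 and 0.595 CPM in the pregnant libraries. Its groups did not overlap either, and its log2 fold change was -4.05 (SE 0.52), between -4.66 and -3.67 with any 1 library left out.

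**Figure D3:**
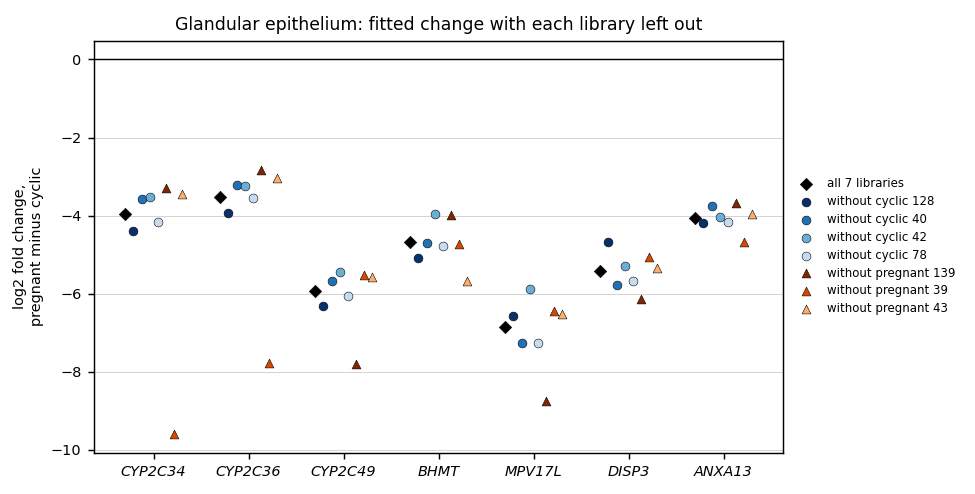
Fitted log2 fold change of pregnant against cyclic GE for each gene, with all 7 libraries (diamond) and with 1 cyclic (circle) or pregnant (triangle) library left out. All values lie below 0, and the widest moves are those of CYP2C34 to -9.59 and CYP2C36 to -7.77 without pregnant gilt P39.

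Groups that did not overlap, with pregnant lower, were seen in 2 of the 7 genes in GE, DISP3 and ANXA13, and in 11.3% of the 11905 detectable genes, and nothing is read from this since the same contrast chose the genes. Some markers of other cells moved with the groups as well. The 7 leukocyte markers summed to 46.2 to 71.8 CPM in cyclic and to 89.4 to 121 CPM in pregnant GE. CD14 was at 2.15 to 10.6 against 29.5 to 71.1 CPM and PTPRC at 5.02 to 11.4 against 16.9 to 23.5 CPM. CD2 was also higher in pregnant GE without overlap, from 10 cyclic and 27 pregnant counts. LCP1 went the other way, with overlap, at 680 cyclic and 312 pregnant counts (pooled ratio of cyclic to pregnant 1.53, interval 1.33 to 1.75). For CD163, CD3E and CD68 the groups overlapped and the interval of the pooled ratio included 1. Of 6 fibroblast markers, DCN and PDGFRA were higher in pregnant GE without overlap. The other 4, COL1A1, COL1A2, COL3A1 and LUM, had lower fitted values in pregnant GE, with overlap. Their pooled ratios of cyclic to pregnant counts were 1.12 to 1.36. The sum of the 6 overlapped, at 2863 to 7494 against 3602 to 6529 CPM. The 9 epithelial markers summed to 1720 to 2038 against 1679 to 1892 CPM, with KRT8, KRT18 and KRT19 lower and CDH1 higher in pregnant GE without overlap. None of those that were detectable was called in GE, a call being an unadjusted p no higher than the highest among the LE genes that passed a false discovery rate of 1%, and their part in the values of the 7 genes was not tested.

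Across all compartments the reads of the 3 CYP2C genes followed the gilt. Summed over its 4 libraries, cyclic gilt C128 had 0 such counts among 16011097, and pregnant gilt P43 had 0 among 12421725. Cyclic gilts C40, C42 and C78 had 276, 323 and 129, pregnant gilt P139 had 2 and pregnant gilt P39 had 24. Pregnant gilt P41 had 133 counts in 3 libraries, without any GE library, which was more than the 30 to 37 counts that each of cyclic gilts C40, C42 and C78 had outside GE.

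**Figure D4:**
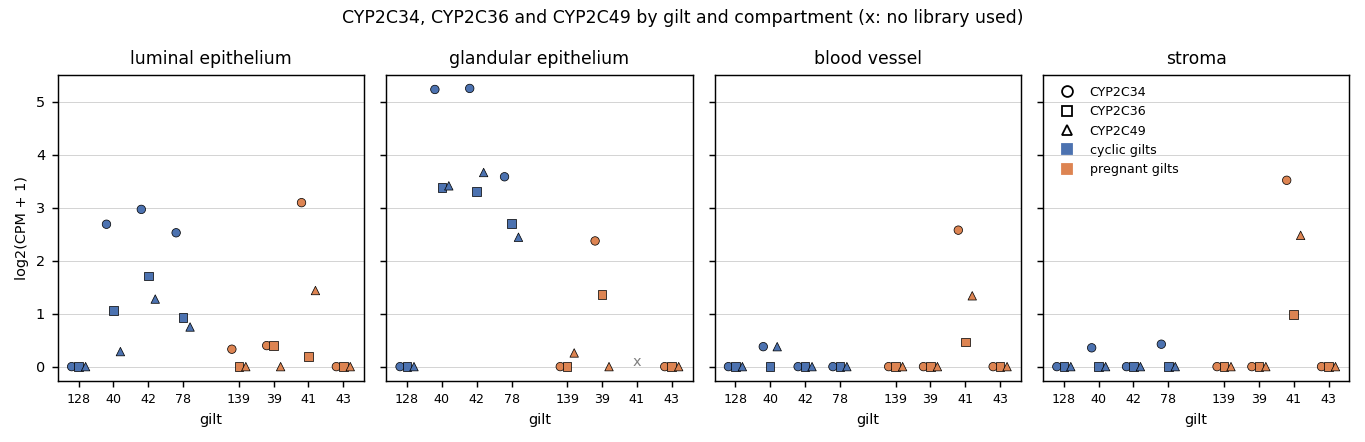
Level of CYP2C34 (circle), CYP2C36 (square) and CYP2C49 (triangle) as log2(CPM + 1) in each library, by gilt and compartment (blue, cyclic; orange, pregnant; x, no library used). Cyclic gilt C128 is at 0 in all 4 compartments, and pregnant gilt P41 has the highest CYP2C34 level in luminal epithelium, blood vessel and stroma.

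In LE the CYP2C genes did not pass the test between pregnant and cyclic gilts, and the value turned on gilt P41. CYP2C34 was at 0, 5.43, 6.81 and 4.75 CPM in LE of cyclic gilts C128, C40, C42 and C78 and at 0.256, 0.317, 7.53 and 0 CPM in pregnant gilts P139, P39, P41 and P43. The highest LE library of all was thus that of pregnant gilt P41, while the other 3 pregnant libraries lay with cyclic gilt C128. The log2 fold change was -0.86 (SE 1.18, adjusted p = 0.682 by edgeR's quasi-likelihood test), and -4.21 (adjusted p = 0.0898) without gilt P41. Without cyclic gilt C128 it was -1.25 (adjusted p = 0.494).

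CYP2C49 in LE was at 0, 0.217, 1.42 and 0.679 CPM in cyclic gilts and at 0, 0, 1.71 and 0 CPM in pregnant gilts, with all 12 pregnant counts from gilt P41. Its log2 fold change was -0.12 (SE 1.37, adjusted p = 0.983) and -4.19 without gilt P41 (adjusted p = 0.288), with 0 pregnant counts left, so that the size depends on the prior count. CYP2C36 differed from the other 2 genes in that LE of gilt P41 held only 1 count, or 0.142 CPM, against 53 of CYP2C34. With 17 cyclic and 2 pregnant counts its log2 fold change was -2.92 (SE 1.18, adjusted p = 0.205).

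In BV and S nearly all reads of the CYP2C genes came from pregnant gilt P41. CYP2C34 had 13 counts (4.96 CPM) in BV and 32 counts (10.4 CPM) in S of this gilt, 0 in BV and S of the other 3 pregnant gilts, and at most 2 in any cyclic BV or S library. CYP2C49 had 4 and 14 counts and CYP2C36 had 1 and 3 counts in BV and S of gilt P41. The log2 fold changes of CYP2C34 were 3.36 in BV (SE 1.64, adjusted p = 0.292) and 3.71 in S (SE 1.65, adjusted p = 0.469), so neither passed the test. CYP2C36 and CYP2C49 gave 1.66 and 1.77 in BV (adjusted p = 0.542 each) and 3.04 and 5.15 in S (adjusted p = 0.578 and 0.443). Without gilt P41 CYP2C34 had 0 pregnant counts left, against 1 cyclic count in BV and 3 in S, which is at or under the floor of 3 counts and gives no direction. CYP2C49 then had 1 count left in BV, and CYP2C36 in BV and S and CYP2C49 in S had none.

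Gland reads in the captures of gilt P41 are given beside this. FOXA2 had 44 counts (14.3 CPM) in S of gilt P41, against 1 to 20 counts in the other 7 S libraries, and 11 counts (4.19 CPM) in BV of gilt P41, the fewest of the 4 pregnant BV libraries. In LE of gilt P41 FOXA2 had 0 counts. Per FOXA2 count, CYP2C34 had 0.727 counts in S and 1.18 in BV of gilt P41, against 0.560, 0.471 and 0.151 in GE of cyclic gilts C40, C42 and C78 and 0.0569 in GE of pregnant gilt P39. In BV of pregnant gilts P139, P39 and P43, FOXA2 had 54, 37 and 16 counts and CYP2C34 had 0. The part of gland RNA in the values of gilt P41 was not tested.

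Outside GE the 4 other genes were sparse, and cyclic gilt C128 was the highest library for BHMT and MPV17L in LE, BV and S. BHMT was at 2.13, 0.652, 0 and 0 CPM in LE of cyclic gilts C128, C40, C42 and C78 and at 0.142 to 1.59 CPM in pregnant LE. In S it was at 9.81 CPM in gilt C128 with 51 counts, against 0 to 1.45 CPM in the other cyclic and 0.233 to 5.67 CPM in the pregnant libraries. This gilt thus had more BHMT reads in S than in GE, where it had 2. The log2 fold changes of BHMT were 0.17 in LE, -0.53 in BV and -0.76 in S (adjusted p = 0.962, 0.816 and 0.803). Without gilt C128 they were 1.58, 1.21 and 1.22.

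MPV17L in LE was at 16.0, 3.04, 3.41 and 1.58 CPM in cyclic gilts C128, C40, C42 and C78 and at 1.53, 0.95, 0.142 and 1.59 CPM in pregnant gilts P139, P39, P41 and P43. Cyclic gilts C40 and C78, at 0 counts in GE, had 14 and 7 counts in LE. The groups overlapped by the cyclic library of gilt C78 alone, and the log2 fold change was -2.52 (SE 0.82, adjusted p = 0.108), or -1.41 (adjusted p = 0.372) without gilt C128. In BV and S it had at most 5 counts in any library other than S of gilt C128, which had 15. Its log2 fold changes there were -0.64 and -0.59 (adjusted p = 0.841 and 0.901), and 2.43 and 3.94 without gilt C128.

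DISP3 in LE was at 1.86, 0, 0.284 and 6.57 CPM in cyclic gilts C128, C40, C42 and C78 and at 1.28, 0, 0 and 0 CPM in pregnant gilts. Gilt C78 held 29 of the 37 cyclic counts, and its LE library was also the one among cyclic LE with the most FOXA2, 13 counts. The log2 fold change was -2.73 (SE 1.42, adjusted p = 0.352), -1.04 without gilt C78 and -6.27 without pregnant gilt P139, which held all 5 pregnant counts, so that this last value depends on the prior count. ANXA13 in LE was at 0.266 to 1.81 CPM in cyclic and 0.142 to 0.956 CPM in pregnant gilts (log2 fold change -1.30, SE 0.92, adjusted p = 0.490). In BV and S, DISP3 and ANXA13 had at most 15 and 5 counts in any library, and in each of these compartments gilt P41 had the highest value of the pregnant gilts for both. The log2 fold changes were 0.23 and -0.60 for DISP3 and 0.87 and 0.53 for ANXA13 in BV and S (adjusted p = 0.948, 0.898, 0.754 and 0.877). Without gilt P41 they were -1.18 and -4.81 for DISP3 and -2.71 and -0.11 for ANXA13, of which -4.81 and -2.71 leave 0 pregnant counts and depend on the prior count. Without gilt C128 the values were 1.66 and 1.71 for DISP3 and 1.01 and 0.73 for ANXA13.

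None of the 7 genes was called in LE, BV or S by edgeR's quasi-likelihood test. At an unadjusted p under 0.05, 2 of the 7 passed in LE (CYP2C36 and MPV17L), 0 in BV and 2 in S (CYP2C34 and CYP2C49), against 17.9%, 18.9% and 10.3% of all genes with at least 1 count. Over the same genes the calls were 2.17% in LE, 1.3% in BV and 0.23% in S, and over the detectable genes of LE, among them CYP2C34, 3.32%. DESeq2, edgeR's robust GLM and RLE normalization also called 0 of the 7 in each of the 3 compartments, as did every fit with 1 library left out.

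Cyclic GE had the highest group mean for all 7 genes, which is part of how they were chosen. On the scale of CPM per kilobase of annotated exon, the cyclic GE means were 11.3 for DISP3, 10.4 for CYP2C34, 5.10 for ANXA13, 3.28 for CYP2C49, 3.06 for CYP2C36, 2.90 for BHMT and 1.47 for MPV17L. With SDs of similar size to the means for all but ANXA13, neighbours in this order did not differ beyond their spread. In pregnant GE the same scale gave 0.00774 for MPV17L to 0.686 for CYP2C34.

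The next highest group in CPM was cyclic LE for CYP2C34 (4.25 ± 2.96 against 21.1 ± 18.6 in cyclic GE, SD, n = 4 each), CYP2C36 (1.07 ± 0.934 against 5.93 ± 4.32), MPV17L (6.0 ± 6.70 against 12.4 ± 15.0), DISP3 (2.18 ± 3.04 against 61.7 ± 58.2) and ANXA13 (0.983 ± 0.751 against 12.7 ± 4.99). For CYP2C49 it was pregnant S (1.14 ± 2.28 against 6.43 ± 5.26), through gilt P41 alone, and for BHMT cyclic S (3.09 ± 4.52 against 7.07 ± 6.15). The library values of cyclic GE and the next group overlapped for all but DISP3 and ANXA13.

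**Figure D5:**
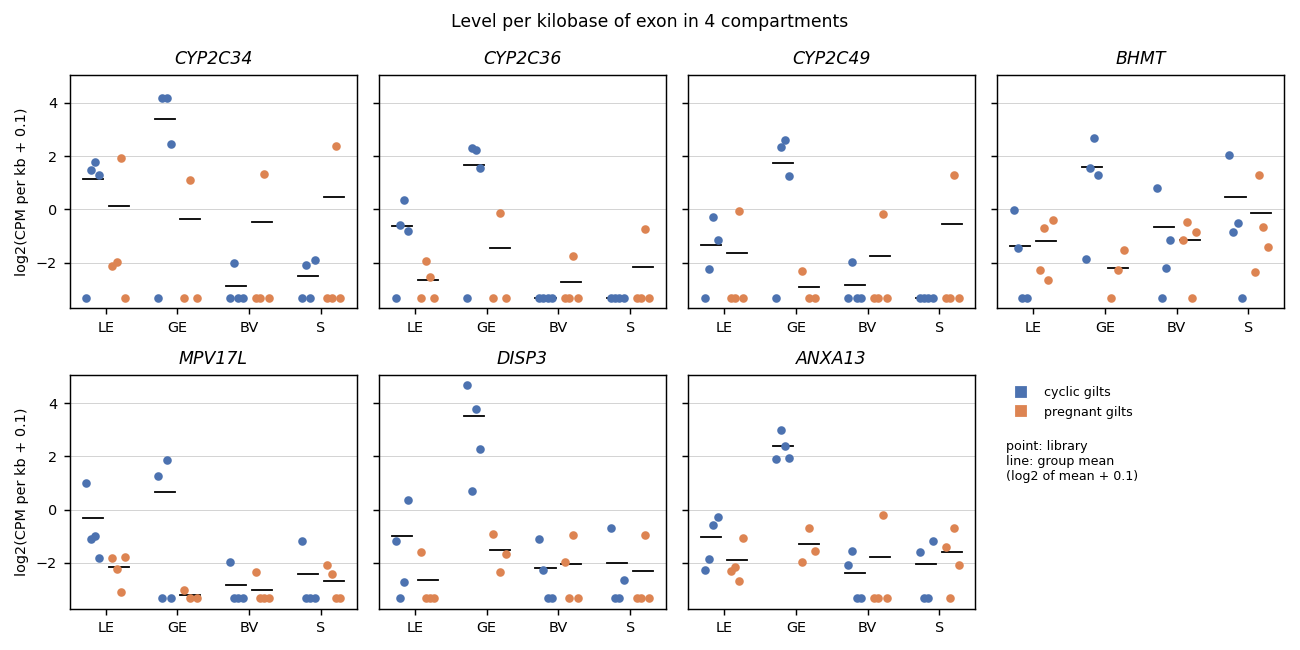
Level of each gene as log2(CPM per kilobase of exon + 0.1) in the 4 compartments (blue, cyclic; orange, pregnant; point, library; line, log2 of the group mean + 0.1). DISP3 and ANXA13 in cyclic GE lie above all their other groups, whereas the CYP2C genes and MPV17L have cyclic GE libraries at 0.

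The profiles of the 7 genes over the GE libraries, which also chose them, were alike to differing degrees. Over the 7 GE libraries Pearson's r of log2(CPM + 1) was 0.994 between CYP2C34 and CYP2C36, 0.972 between CYP2C49 and BHMT and 0.822 between MPV17L and DISP3. It was 0.110 between CYP2C34 and MPV17L, and for ANXA13 between 0.738 and 0.797 with the CYP2C genes and BHMT and 0.752 with DISP3. Over all 31 libraries CYP2C34 and BHMT had an r of 0.281 only, against 0.905 in GE. These values share depth and the same 8 gilts and are a description, a positive r in GE is in part fixed by the choice of genes that were low in pregnant GE, and for the 3 CYP2C genes shared reads can add to them.

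Of the 8 other CYP2C genes in the annotation, 7 had at least 10 counts. CYP2C32, between CYP2C34 and CYP2C49, was at 0, 6.65, 9.65 and 4.43 CPM in cyclic GE and at 0, 1.30 and 0.892 CPM in pregnant GE, in the order of gilts used above. LOC100624435, annotated as CYP2C42-like at the start of the cluster, was at 0, 5.05, 9.85 and 3.16 CPM and at 0.196, 0 and 0 CPM. Both had 0 counts in all libraries of gilt C128, and in BV and S their reads came from gilt P41 alone. Neither was called in GE by the quasi-likelihood test. CYP2C32 had a log2 fold change of -2.89 (SE 1.32, adjusted p = 0.237) and LOC100624435 one of -5.42 (SE 1.65, adjusted p = 0.110). The paper, which used edgeR's robust GLM, does name LOC100624435 as differentially expressed in GE. It also names CYP2C34, CYP2C36, CYP2C49, BHMT, DISP3 and an MPV17-like gene there. That is the contrast for which the 7 genes were chosen, so it is no separate evidence for them. Recomputed here, the robust GLM called 793 genes in GE, against 89 by the quasi-likelihood test.

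CYP2C91, an annotated transcribed pseudogene on the minus strand that overlaps CYP2C42, had the most reads of the family, and its mean in cyclic gilts was higher in LE than in GE. In LE it was at 9.32, 87.4, 125 and 79.0 CPM in cyclic gilts C128, C40, C42 and C78 and at 12.0, 3.8, 13.9 and 3.19 CPM in pregnant gilts P139, P39, P41 and P43. Here too gilt C128 lay among the pregnant libraries, of which gilt P41 was the highest. In BV and S gilt C128 was the highest library, at 18.4 and 21.0 CPM. The log2 fold change was -3.13 in LE (SE 0.75, adjusted p = 0.0293) and -2.79 in GE (SE 0.80, adjusted p = 0.0999), and neither met the call rule. LOC110255181, CYP2C42, LOC100739741 and CYP2C33 had 10 to 25 counts over all libraries, and CYP2C42, with 0 in GE, had 14 of its 25 counts in LE of pregnant gilt P43.

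Over all lists of partners and pathway genes, members left out, 84 were detectable in GE, and 0 rose and 1 fell by the quasi-likelihood test, against 0.748% of all genes. The one that fell was AHCY, which breaks down S-adenosylhomocysteine to homocysteine, the substrate of BHMT. It was at 21.8 ± 7.72 CPM in cyclic (SD, n = 4) and 3.94 ± 1.43 CPM in pregnant GE (SD, n = 3), a log2 fold change of -2.44 (SE 0.40, adjusted p = 0.0433). In LE 3 of 78 listed genes rose and 2 fell, against 3.32% of all genes, in BV 1 of 75 rose, against 1.86%, and in S 0 of 77 were called, against 0.293%. At an unadjusted p under 0.05, S had 1735 of 11935 genes. These calls depend on single libraries, since 0 listed genes were called in LE when C40, C42, P139, P39 or P43 was left out, in GE 0 when C40, C42, P139 or P43 was, and in BV 0 when C40, C42, P139 or P39 was. Without P39 the 1 listed gene called in GE rose, so that AHCY lost its call when any 1 of C40, C42, P139, P39 and P43 was left out.

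Of the P450 partners and epoxide hydrolases, 0 of 8 were called in GE or LE. PGRMC1, a heme-binding partner of P450 enzymes, was at 936 ± 190 CPM in GE of cyclic and 1096 ± 98.8 CPM in that of pregnant gilts, and cytochrome b5 (CYB5A), an electron donor, at 255 ± 20.7 and 297 ± 100 CPM. EPHX1, microsomal epoxide hydrolase, was the 1 listed gene that rose in BV, from 10.3 ± 3.25 to 35.0 ± 11.4 CPM (log2 fold change 1.78, SE 0.31, adjusted p = 0.0163), where the summed epithelial markers were also higher. Of 13 detectable liver-type regulators and nuclear receptors, 0 were called in GE or LE. The estrogen receptor ESR1 was at 478 ± 112 and 216 ± 52.1 CPM in GE (adjusted p = 0.0566).

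In the betaine and methionine cycle, 3 of 15 genes rose in LE and 1 of 17, AHCY, fell in GE. In LE AHCY was at 31.2 ± 15.7 CPM in the 4 cyclic and 8.25 ± 2.61 CPM in the 4 pregnant gilts. This difference of -1.87 on the log2 scale (SE 0.36, edgeR adjusted p = 0.0132) was not called, and the test of the difference between GE and LE gave an adjusted p of 0.725. CHDH, which makes betaine aldehyde from choline, rose in LE from 17.2 ± 11.8 to 96.2 ± 23.3 CPM (log2 fold change 2.47, SE 0.43, adjusted p = 0.00885). ALDH7A1, which can oxidise betaine aldehyde to betaine, rose from 135 ± 34.4 to 406 ± 137 CPM (1.60, SE 0.27, adjusted p = 0.0075), and CTH, the last enzyme of cysteine synthesis from homocysteine, from 7.83 ± 3.8 to 73.8 ± 33.8 CPM (3.24, SE 0.50, adjusted p = 0.00578). In GE their log2 fold changes were 0.75, 0.07 and 1.73, none called.

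Of the MPV17 family, peroxisomal and antioxidant genes 0 of 21 were called in GE and 0 of 20 in LE. Catalase (CAT) was at 142 ± 34.6 and 277 ± 67.7 CPM in cyclic and pregnant GE (adjusted p = 0.0903), and the secreted peroxidase GPX3 at 52.7 ± 48.4 and 659 ± 368 CPM (adjusted p = 0.102). The Dispatched family and Hedgehog genes gave 0 calls of 14 in GE and 0 of 12 in LE, with the receptor PTCH1 at 44.0 ± 27.2 and 89.1 ± 20.8 CPM in GE (adjusted p = 0.192). Among the annexins, 2 of 9 fell in LE, ANXA1 from 283 ± 102 to 52.0 ± 23.9 CPM and ANXA7 from 228 ± 19.1 to 99.0 ± 19.8 CPM (adjusted p = 0.00662 and 0.00402). In GE 0 of 8 were called, and ANXA4, the most abundant, was at 647 ± 127 and 311 ± 37.0 CPM (adjusted p = 0.0497).

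Whether the effect of pregnancy differed between GE and LE was tested for the listed genes with an interaction contrast over 10922 genes detectable in both. It called 16 genes (0.146%) at a false discovery rate of 1%, and 0 of the 74 listed genes, with 1548 genes at an unadjusted p under 0.05. With the gilt as a block 14 genes and again 0 listed genes were called. Among the listed genes named here ANXA7 had the lowest adjusted p, with -1.19 in LE and -0.06 in GE (adjusted p of the difference 0.0232, or 0.0337 with the block).

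The genes in the GE table whose profile was most like the mean profile of the 7 were LOC100624435 (Pearson's r = 0.913 over 31 libraries), CYP2C32 (0.871), HPD (0.836), LOC106505010 (0.827) and RHOV (0.827). The measure was the correlation of log2(CPM + 1) with the mean of the 7 standardised profiles, and libraries share depth, gilt and compartment. LOC100624435 and CYP2C32 belong to the CYP2C cluster, so reads shared with the CYP2C genes among the 7 can add to their r. HPD, 4-hydroxyphenylpyruvate dioxygenase of tyrosine breakdown, had GE means of 10.6 CPM in cyclic and 0.790 CPM in pregnant gilts. By Spearman's rank correlation none of these 5 was among the first 5, which were led by LOC110255465 (0.859) and MOCOS (0.838), so the order depends on the measure.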

How the data were processed

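The deposited values are read counts per NCBI gene, which the authors made from laser-captured endometrium with the Ovation SoLo kit: trimming with Trim Galore, alignment to Sscrofa11.1 with Hisat2, removal of PCR duplicates with NuGEN's tool and counting with QuasR, with no versions given. The counts are whole numbers without normalization, in 4 tables of 30185 genes, each also as a table that the authors filtered by CPM. All gene IDs matched RefSeq.

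Pregnant and cyclic libraries were compared per compartment with the quasi-likelihood test of edgeR 4.0.16 (R 4.3.3, TMM, Benjamini-Hochberg adjustment) on the filtered counts. The call limit was a 1% FDR for LE and, in the other compartments, the highest unadjusted p among the LE calls (0.00033). Members outside a filtered table were fitted over all genes with at least 1 count. Each SE is the size of the log2 fold change over the square root of the F statistic of this test. It is not a separate estimate from the model. DESeq2 1.42.0 and edgeR's robust GLM were alternatives. The quasi-likelihood fit was tested on simulated LE counts in which only well-covered genes were changed. That test does not cover the sparse counts of the members outside GE.

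Replicates are gilts. Same-numbered libraries come from 1 animal, and correlations of the deviations of GE and LE were 0.0669 to 0.394, so the gilt was also fitted as a block. The members, lists and named genes were chosen with earlier results of these data known. Named were all members, CYP2C genes with at least 10 counts, listed genes called in GE or LE, up to 3 abundant others per list and the 5 most similar genes, except 1 listed gene. This gene and 1 of the motifs searched are not reported here. CYB5R3 and PIPOX matched no ID and TF matched 2, so they were not used. Of the marker lists, epithelium and gland and those for hepatocytes, fibroblasts and leukocytes are given beside the results. In GE the smooth muscle markers summed to 18.5 to 167 CPM in cyclic and 17.5 to 42.1 CPM in pregnant gilts, endothelial markers to 15.7 to 43.2 and 19.3 to 175 CPM, and cilia markers to 58.5 to 126 and 55.3 to 202 CPM. Sequences were read from the RefSeq genome Sscrofa11.1 with pysam 0.24.0 and aligned with Biopython 1.88.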

Additional observations from a re-analysis of the deposited data

Results flagged for a closer look

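Among the 7 genes, 37 groups of 4 libraries had more than 3 counts in their highest library, and in 14 of them 1 library was far from the others (Dixon's ratio over its 95% limit). That limit flags about 1 in 20 groups of continuous values by chance. In 10 of the 14 the other 3 libraries were at 0 counts, where the ratio is 1 by construction, and the genes share gilts and reads, so the 14 cannot be set against that share. Of the 14, 8 were libraries of pregnant gilt P41, 5 of cyclic gilt C128 and 1 of pregnant gilt P139.

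In pregnant gilt P41, CYP2C34 was at 7.53 CPM in LE, 4.96 CPM in BV and 10.4 CPM in S, while the next pregnant library was at 0.317, 0 and 0 CPM. CYP2C49 was at 1.71, 1.52 and 4.56 CPM in the same 3 libraries, with 0 CPM in all other pregnant ones. In S of this gilt DISP3 was at 2.28 CPM, and in BV ANXA13 was at 1.91 CPM, again with 0 CPM in the next library.

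In cyclic gilt C128, MPV17L was at 16.0 CPM in LE, 1.34 CPM in BV and 2.89 CPM in S, where the next cyclic library was at 3.41, 0 and 0 CPM. BHMT was at 9.81 CPM in S against 1.45 CPM in the next library, and DISP3 in S at 2.89 CPM against 0.341 CPM. In pregnant gilt P139, DISP3 was at 1.28 CPM in LE, from 5 counts, with 0 CPM in the other 3 pregnant libraries.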

How the results depend on the processing

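Each result was recomputed with 1 choice changed at a time. The count of the 7 genes called stayed at 0 in LE, BV and S under every alternative that gave a value, and all 7 fitted values in GE stayed below 0. Of 230 values of the 7 genes outside GE under alternatives, 205 kept their sign and call and 25 changed sign. Under edgeR's robust GLM the changed values were 0.38 for BHMT and -0.96 for ANXA13 in BV and 1.31 for MPV17L in S. With 1 library left out, values that changed sign ranged in LE from -4.19 to 0.71 for CYP2C49 and from -0.43 to 1.58 for BHMT. In BV they ranged from -1.51 to 4.82 for CYP2C34, -1.51 to 3.23 for CYP2C49, -0.95 to 1.21 for BHMT, -3.12 to 2.43 for MPV17L, -1.18 to 1.66 for DISP3 and -2.71 to 1.72 for ANXA13. In S they ranged from -2.64 to 4.40 for CYP2C34, -2.10 to 1.22 for BHMT, -1.60 to 3.94 for MPV17L, -4.81 to 1.71 for DISP3 and -0.11 to 1.24 for ANXA13. Several of these leave a group at 0 counts, where the value depends on the prior count, and the cause was otherwise not tested. By Spearman's rank correlation, 0 of the 5 most similar genes by Pearson's r were among the first 5.

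Counts over all detectable genes depended on the tool. DESeq2 called 1342, 791, 943 and 310 genes in LE, GE, BV and S, edgeR's robust GLM 1411, 793, 1216 and 377, and the main test 398, 89, 206 and 35. A 1% FDR within each compartment left 0 in GE, BV and S, and a 5% FDR gave 1288, 221, 958 and 4. Of the listed genes the main test called 5, 1, 1 and 0, DESeq2 called 18, 12, 8 and 5 and the robust GLM 17, 16, 14 and 7. Without a filter 8 listed genes were called in LE, 5 in BV and 1 in S. A 1% FDR within the compartment called 0 in GE and BV, and a 5% FDR called 17 in LE, 4 in GE and 9 in BV.

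With 1 library left out, 101 to 439 genes were called in LE, 38 to 110 in GE, 77 to 231 in BV and 12 to 52 in S. The listed calls were 0 to 8 in LE, 0 to 3 in GE, 0 to 3 in BV and 0 to 2 in S. The counts moved by over 1.5 times without C40, C42, P139, P39 or P43 in LE, without C42, P139, P39 or P43 in GE, without C128, C40, C42, P39 or P43 in BV and without C128, C40 or P43 in S. The interaction of GE and LE called 16 genes, 14 with the gilt as a replicate block, and 1 to 21 with 1 gilt left out, of which 1 to 9 without C128, C40, C42, P139, P39 or P43. The block changed no call among the listed genes. Precision is limited by counts of 0 to 60 for the 7 genes outside GE.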
